A study of Mus musculus with 15 samples.

Results

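The 10 genes described here encode the machinery that presents peptides on MHC class I molecules: the heavy chains H2-K1 and H2-D1, the shared light chain B2m, the peptide transporter subunits Tap1 and Tap2, the loading protein Tapbp, the immunoproteasome subunits Psmb8, Psmb9 and Psmb10, and the transactivator Nlrc5. They are 10 of the 50686 genes in the deposited table, matched by Ensembl identifier. All 10 were among the 13499 genes tested, those with a mean of at least 10 normalized counts over the 15 libraries. The genes were chosen by their known roles and by their measured values in an earlier look at these libraries, in which they stood high in the offspring of mothers fed a high-fat diet that stayed sedentary. Differences that involve those libraries are therefore given as a description, with no p-value for the 10 genes.

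Class I molecules carry peptides from proteins degraded inside the cell to its surface, where cytotoxic T cells and natural killer cells read them. In cells exposed to interferon the proteasome takes up 3 alternative catalytic subunits, TAP pumps the peptides into the endoplasmic reticulum, and tapasin (Tapbp) holds TAP to the empty heavy chain and light chain until a peptide binds. Nlrc5 switches on most of these genes together, and resting muscle fibres are known to show little class I on their surface.

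Quadriceps muscle of 10-month-old offspring of C57BL/6 mice was profiled by RNA sequencing in 5 groups of 3 libraries. In MHE and MHS the mother ate a 60% high-fat diet for 6 weeks before mating with a lean male, and she then ran on a wheel during pregnancy (MHE) or had the wheel locked (MHS). In PHE and PHS the father had that diet, and the lean dam ran on a wheel (PHE) or had it locked (PHS). In the control group, NCS, chow was fed to both parents and the wheel was locked. All offspring, in every group, had chow and no wheel from the day after birth, so the groups differ in what a parent was exposed to and not in the offspring's own diet. One control group served both the maternal and the paternal arm, and every comparison with NCS uses the same 3 libraries. The labels do not say which animals were littermates, so every p-value reflects the spread between these particular samples only.

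The libraries held 18457663 to 26981745 counted reads. The summed level of 8 skeletal muscle genes lay between 3.25e+06 and 5.60e+06 normalized counts in every library, as the tissue label says. Reads of 7 hepatocyte genes such as Alb, which muscle does not express at a high level, differed widely: they summed to 117, 59976 and 7893 normalized counts in MHS replicates 1 to 3, to 3189 in PHS replicate 1, to 2400 in NCS replicate 2 and to at most 441 in the other 10 libraries. MHS replicate 3 and NCS replicate 2 had the fewest genes with a read, 17581 and 17699, against 19062 to 20771 in the other 13 libraries. Each sample title is a code that the labels do not explain. Its opening part was the same in MHE replicate 3 and all 3 MHS libraries. A fit with that part as a term could not be estimated for either maternal group against NCS, for MHS against PHS or for MHE against PHE. In those comparisons the title code and the group cannot be told apart.

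In the mouse genome 7 of the 10 genes lie within the major histocompatibility complex on chromosome 17, in GENCODE M21 coordinates on GRCm38 from Tapbp (chr17:33915899-33929292) to H2-D1 (chr17:35262730-35267499). H2-K1 lies at chr17:33996017-34000347, and Psmb9 (chr17:34181987-34187764), Tap1 (chr17:34187553-34197225), Psmb8 (chr17:34197721-34201454) and Tap2 (chr17:34203527-34216321) stand next to each other. The starts of Tap1 and Psmb9 face away from each other and overlap. B2m is on chromosome 2 (chr2:122147686-122153083), and Psmb10 (chr8:105935735-105938444) and Nlrc5 (chr8:94434356-94527272) are on chromosome 8.

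Promoter windows from 250 bases before to 50 bases after the gene's start were given for 8 of the 10 genes by RefSeq (GRCm38.p6), with none for Tap2 and Nlrc5. The windows of 4 genes are shown because they belong to the genes at the centre of the results, the heavy chains, the light chain and the transporter subunit with the largest difference. Each is written 5′ to 3′ on the gene's own strand, and capitals mark matches to an NF-kB motif, an interferon-stimulated response element core and a CCAAT box, read on either strand.
H2-K1 (chr17:34000298-34000597, minus strand): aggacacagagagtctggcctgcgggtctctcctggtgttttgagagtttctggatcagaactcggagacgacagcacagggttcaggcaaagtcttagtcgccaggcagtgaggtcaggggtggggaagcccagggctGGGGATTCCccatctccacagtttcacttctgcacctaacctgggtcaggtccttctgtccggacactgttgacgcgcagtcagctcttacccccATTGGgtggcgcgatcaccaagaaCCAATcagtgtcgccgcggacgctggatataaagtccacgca
H2-D1 (chr17:35262844-35263143, plus strand): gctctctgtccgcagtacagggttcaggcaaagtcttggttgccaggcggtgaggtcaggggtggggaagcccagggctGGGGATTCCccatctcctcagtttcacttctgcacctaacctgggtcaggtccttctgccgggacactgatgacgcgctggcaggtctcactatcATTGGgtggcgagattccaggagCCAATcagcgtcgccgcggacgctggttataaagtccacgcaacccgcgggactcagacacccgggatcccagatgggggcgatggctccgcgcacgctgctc
B2m (chr2:122147437-122147736, plus strand): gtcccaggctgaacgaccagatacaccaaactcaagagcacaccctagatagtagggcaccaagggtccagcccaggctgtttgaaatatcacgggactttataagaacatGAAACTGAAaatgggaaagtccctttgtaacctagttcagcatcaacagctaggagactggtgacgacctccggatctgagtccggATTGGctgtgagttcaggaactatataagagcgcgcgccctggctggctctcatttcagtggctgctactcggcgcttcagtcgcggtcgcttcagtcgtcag
Tap1 (chr17:34187306-34187605, plus strand): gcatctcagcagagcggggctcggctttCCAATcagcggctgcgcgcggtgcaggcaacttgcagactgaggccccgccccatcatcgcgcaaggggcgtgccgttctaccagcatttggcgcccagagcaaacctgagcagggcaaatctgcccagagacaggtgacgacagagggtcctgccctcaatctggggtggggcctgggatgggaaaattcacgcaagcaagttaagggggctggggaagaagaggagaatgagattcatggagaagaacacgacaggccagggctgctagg

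The motifs are known from class I promoters or interferon responses and were searched on both strands, each on its own, so matches of different motifs could overlap. An NF-kB motif, GGGNNTTCC, was found in 2 of the 8 windows, H2-K1 and H2-D1, and in 5.82% of the 32851 windows of the table. The core of an interferon-stimulated response element, GAAANNGAA, was found in 1, B2m, against 8.56% of all windows. The H2-K1 and H2-D1 windows hold tttcacttc, whose opposite strand has GAA before GAAA, and this pattern does not match it. A window without a match can thus still hold a variant of the element. The gamma-activated site TTCNNNGAA was found in 1, Psmb8, against 8.30%. A CCAAT box was found in 6 of the 8, all but Psmb8 and Psmb10, against 37.4%. The H2-K1 and H2-D1 windows were nearly the same sequence, with 206 identical bases over 228 aligned (90.4%), and the Tap1 and Psmb9 windows shared 275 bases on opposite strands, so those windows are not independent. A match describes letters in a window and not a bound site.

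The 2 heavy chains and the light chain were the most abundant of the 10 and stood highest in MHS muscle. Per kilobase of exon, the median over the 15 libraries was 1245 normalized counts for B2m, 757 for H2-D1 and 684 for H2-K1. Tapbp followed with 206 per kilobase, Psmb10 with 114, Tap2 with 50.9, Psmb8 with 25.6, Tap1 with 23.4, Psmb9 with 13.9 and Nlrc5 with 9.57. The presented molecule was thus measured with up to 3459 reads in a library, and the lowest count behind any value was 26 reads, for Psmb9.

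H2-K1, a classical heavy chain that holds the peptide, had 1578, 1902 and 2029 normalized counts in MHE muscle, 2654, 3040 and 3301 in MHS, 2010, 1769 and 1879 in PHE, 1617, 1916 and 2290 in PHS, and 1701, 2079 and 2018 in NCS. All 3 MHS libraries lay above the other 12, and the remaining groups overlapped. The MHS mean was 2999 ± 326, against 1932 ± 203 in NCS (SD, n = 3 each), a log2 difference of 0.63 ± 0.14 (SE).

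H2-D1, the second classical heavy chain of this strain, had 1910, 1922 and 2159 normalized counts in MHE, 2548, 2446 and 3287 in MHS, 2124, 1890 and 1857 in PHE, 1644, 1828 and 2422 in PHS, and 1615, 2177 and 1953 in NCS. MHS again held the 3 highest libraries, but the lowest of them, 2446, stood just above PHS replicate 3 at 2422. The log2 difference between MHS and NCS was 0.53 ± 0.16 (SE). The ratio of H2-K1 to H2-D1 stayed between 0.826 and 1.24 in the 15 libraries, and the 2 genes were the most alike pair among the 45 pairs of members, with Pearson r of 0.92 over the 15 libraries and 0.84 once group means were removed.

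B2m, the light chain that every classical heavy chain needs to reach the surface, had 876, 923 and 1105 normalized counts in MHE, 1288, 1616 and 1213 in MHS, 1194, 960 and 1090 in PHE, 1098, 1071 and 1046 in PHS, and 820, 748 and 1052 in NCS. Its lowest MHS value, 1213, stood close to PHE replicate 1 at 1194. The log2 difference between MHS and NCS was 0.66 ± 0.15 (SE), near those of the heavy chains. Heavy chain counts summed to 3.97 ± 0.18 per B2m count in MHE, 4.29 ± 1.04 in MHS, 3.57 ± 0.21 in PHE, 3.66 ± 0.78 in PHS and 4.50 ± 1.03 in NCS (SD, n = 3 each), and this ratio overlapped between MHS and NCS.

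Of the genes that bring peptides to the heavy chain, Tap1 differed most and Tapbp least. Tap1, a subunit of the peptide pump, had 72.3, 103 and 153 normalized counts in MHE, 298, 199 and 193 in MHS, 128, 125 and 144 in PHE, 132, 125 and 162 in PHS, and 94.5, 43.4 and 102 in NCS. The 3 MHS libraries were the highest, and NCS replicate 2 was the lowest of all 15. The MHS mean was 230.1 ± 59.0, against 80.1 ± 32.0 in NCS (SD, n = 3 each), a log2 difference of 1.58 ± 0.31 (SE).

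Tap2, the partner subunit, had 184, 171 and 224 normalized counts in MHE, 280, 222 and 365 in MHS, 167, 201 and 189 in PHE, 190, 192 and 198 in PHS, and 161, 196 and 182 in NCS. MHS lay above NCS without overlap, while MHE replicate 3 (224) reached above MHS replicate 2 (222). The log2 difference between MHS and NCS was 0.66 ± 0.17 (SE). Tap1 stood at 0.560 ± 0.150 counts per Tap2 count in MHE, at 0.829 ± 0.273 in MHS, at 0.717 ± 0.084 in PHE, at 0.722 ± 0.088 in PHS and at 0.458 ± 0.205 in NCS (SD, n = 3 each), with MHS replicate 3 (0.530) inside the NCS range.

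Tapbp, which bridges the pump and the empty class I molecule, had 747, 668 and 785 normalized counts in MHE, 906, 885 and 960 in MHS, 658, 774 and 733 in PHE, 676, 624 and 795 in PHS, and 679, 805 and 722 in NCS. The MHS libraries were the 3 highest with little spread, 917 ± 38.3 (SD, n = 3), although the log2 difference from NCS was only 0.32 ± 0.12 (SE).

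The immunoproteasome subunits did not differ equally. Psmb8, which takes the place of Psmb5, had 60.1, 72.9 and 82.2 normalized counts in MHE, 133, 104 and 145 in MHS, 98.8, 78.9 and 84.9 in PHE, 86.4, 94.5 and 108 in PHS, and 59.9, 90.9 and 81.9 in NCS. MHS lay above MHE, PHE and NCS without overlap, and PHS replicate 3 (108) reached above MHS replicate 2 (104). The log2 difference between MHS and NCS was 0.71 ± 0.20 (SE).

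Psmb9, which takes the place of Psmb6, had 26.5, 47.4 and 60.8 normalized counts in MHE, 115, 87.0 and 86.4 in MHS, 68.1, 44.8 and 51.0 in PHE, 53.5, 50.9 and 63.0 in PHS, and 45.7, 43.4 and 46.3 in NCS. The MHS libraries stood above all other 12, and MHE replicate 1 was the lowest of all. The MHS mean was 96.0 ± 16.1, against 45.1 ± 1.51 in NCS (SD, n = 3 each), a log2 difference of 1.06 ± 0.27 (SE).

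Psmb10, which takes the place of Psmb7, had 166, 203 and 192 normalized counts in MHE, 227, 226 and 274 in MHS, 194, 152 and 177 in PHE, 176, 180 and 220 in PHS, and 205, 232 and 176 in NCS. It was the one member whose MHS and NCS libraries overlapped, with NCS replicate 2 (232) above MHS replicates 1 and 2. The log2 difference was 0.25 ± 0.16 (SE).

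Nlrc5, which binds class I promoters through the RFX complex and is named for its NOD-like fold, had 61.1, 76.5 and 95.8 normalized counts in MHE, 208, 139 and 152 in MHS, 68.1, 81.3 and 90.0 in PHE, 66.8, 114 and 107 in PHS, and 43.7, 75.8 and 53.4 in NCS. All MHS libraries stood above the other 12. The MHS mean was 166 ± 36.5, against 57.6 ± 16.4 in NCS (SD, n = 3 each), a log2 difference of 1.53 ± 0.26 (SE).

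**Figure D1:**
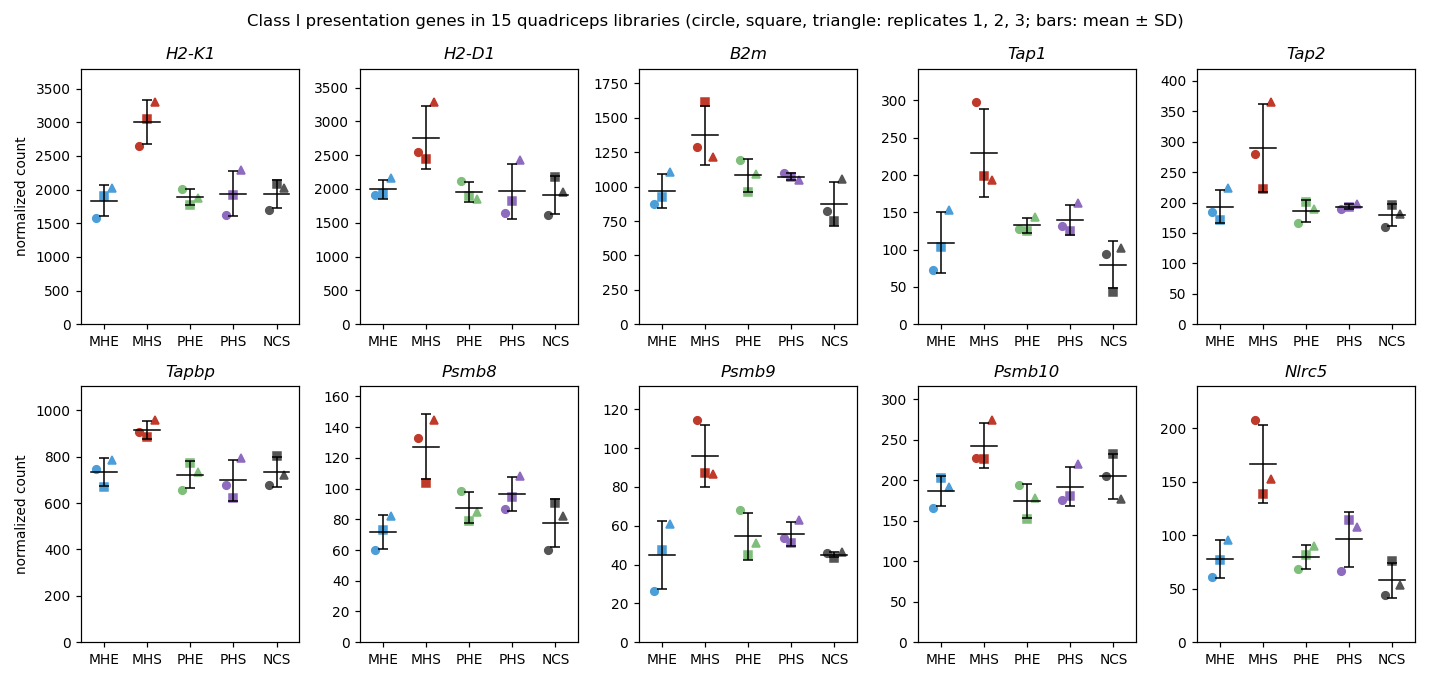
Normalized counts (vertical axes) of the 10 class I presentation genes in each library, by group (horizontal axes). Points are libraries, horizontal lines the mean and bars the SD of 3 libraries, and MHS lies above the other 12 libraries for 7 of the 10 genes.

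For 7 of the 10 genes (H2-K1, H2-D1, B2m, Tap1, Tapbp, Psmb9 and Nlrc5) every MHS library lay above all other 12 libraries, which held for 39 of the 13499 genes tested (0.289%). Since the genes were chosen by their MHS values, this share describes the choice. The highest MHS library was not the same for all genes: it was replicate 1 for Tap1, Psmb9 and Nlrc5, replicate 2 for B2m, and replicate 3 for H2-K1, H2-D1, Tap2, Tapbp, Psmb8 and Psmb10.

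**Figure D2:**
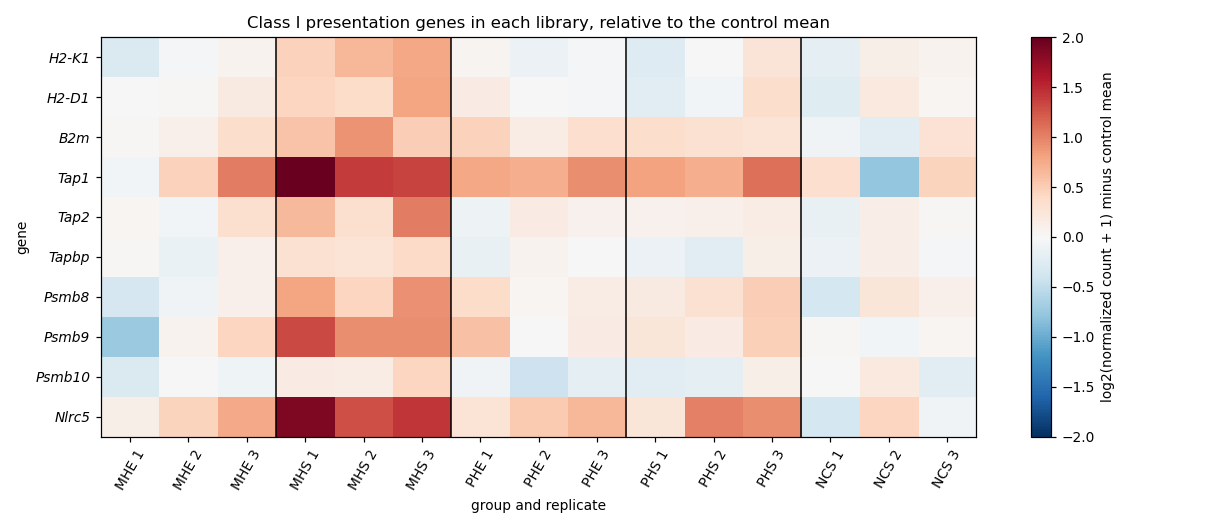
Log2(normalized count + 1) of each class I presentation gene (rows) in each library (columns), minus the gene's NCS mean, with red above and blue below it. Tap1 and Nlrc5 in MHS replicate 1 carry the darkest red, and Tap1 in NCS replicate 2 and Psmb9 in MHE replicate 1 the darkest blue.

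In MHS against NCS all 10 genes had the higher mean in MHS, with a median log2 difference of 0.66 beside 0.014 over all genes tested. For 9 of the 10 the 3 MHS libraries lay above the 3 NCS libraries, as did 4.44% of all genes. limma called 0 of the 13499 genes at an adjusted p of at most 0.05 in this comparison (0%), with 546 at an unadjusted p of at most 0.05, and edgeR called 0, while DESeq2 called 18 of 13479 (0.134%). Without the 4 libraries with the most hepatocyte reads, which leaves 1 MHS library and 2 NCS libraries, the median was 0.62, with all 10 still higher.

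In MHE against MHS, the comparison of exercise within the maternal arm, all 10 genes had the lower mean in MHE, with a median log2 difference of -0.63 beside 0.0024 over all genes tested. The largest differences were those of Psmb9 (-1.15 ± 0.27), Tap1 (-1.10 ± 0.31) and Nlrc5 (-1.09 ± 0.26), followed by Psmb8 (-0.82 ± 0.20) and H2-K1 (-0.71 ± 0.14), on the log2 scale with SE. For 9 of the 10, all but Tap2, the MHE libraries lay below the MHS libraries, as did 8.61% of all genes. limma called 0 genes (0%), with 1288 at an unadjusted p of at most 0.05, and edgeR 0, while DESeq2 called 58 of 13479 (0.43%). MHE replicate 3, which shares its title code's opening part with the MHS libraries, was the highest MHE library for 9 of the 10 genes, all but Psmb10, and stood below every MHS library for 9, all but Tap2. With the title code as a term, which rests on that library, the median was -0.45. Scaling by library totals gave all genes a median of 0.11 in this comparison and the 10 genes a median of -0.53.

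MHS against PHS set the maternal against the paternal diet, both with sedentary dams, but the title code cannot be told apart from the group here. All 10 genes had the higher mean in MHS, with a median log2 difference of 0.52 beside 0.013 over all genes, and 9 did not overlap, as did 3.99% of all genes. limma called 0 genes (0%), with 587 at an unadjusted p of at most 0.05, and edgeR and DESeq2 0. The differences were less unequal than against NCS, from 0.34 for Psmb10 to 0.80 for Nlrc5, and the median was 0.38 without the 4 libraries with the most hepatocyte reads.

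**Figure D3:**
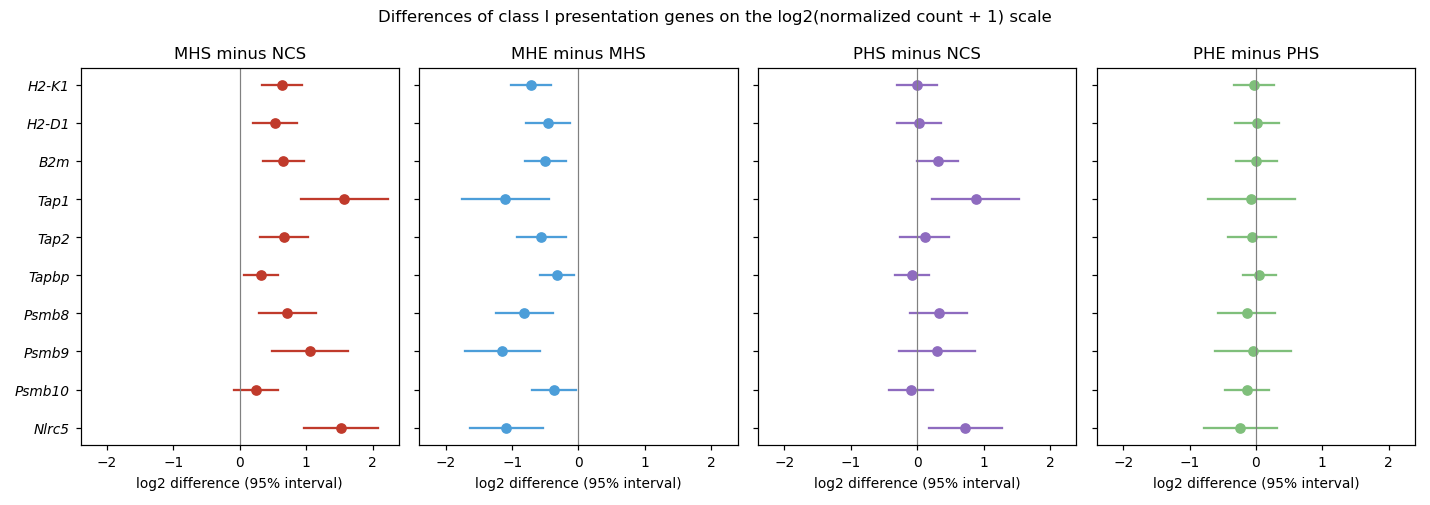
Log2 differences (horizontal axes, on the log2(normalized count + 1) scale) of the class I presentation genes in 4 comparisons, with 95% intervals from the fit over 15 libraries as bars. MHS minus NCS and MHE minus MHS hold the libraries whose values chose the genes, and in PHE minus PHS every interval spans 0.

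The comparisons without MHS libraries do not hold the values that chose the genes, so limma p-values are given. Standing high in MHS is judged beside the other groups, so the choice may favour genes that were low in NCS. The p-values of comparisons with NCS carry that limit. In MHE against NCS none of the 10 genes passed limma's test, whose adjusted p-values over all 13499 genes were 0.612 to 0.997, and 0% of all genes passed. Of the 10, 5 had the higher and 5 the lower mean in MHE, the median log2 difference was 0.033 beside 0.017 over all genes, and every gene overlapped between the groups, whereas 5.54% of all genes lay higher in MHE without overlap. At an unadjusted p of at most 0.05 stood 1183 genes and 0 members, and edgeR and DESeq2 called 0 genes. The largest differences were those of Tap1 (0.47 ± 0.31) and Nlrc5 (0.44 ± 0.26), with 95% intervals of -0.18 to 1.13 and -0.11 to 0.99.

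In PHS against NCS, which addresses the paternal diet, no member passed limma's test (adjusted p 0.920 to 0.997) and 0% of all genes passed, with 387 at an unadjusted p of at most 0.05. Tap1 and Psmb9 lay higher in PHS than in NCS without overlap, a pattern shared by 2.64% of all genes. Tap1 averaged 140 ± 19.8 normalized counts in PHS and 80.1 ± 32.0 in NCS (SD, n = 3 each), a log2 difference of 0.88 ± 0.31 with a limma adjusted p of 0.920. Leaving out NCS replicate 2, the lowest library for Tap1, gave a log2 difference of 0.49. Nlrc5 averaged 96.0 ± 25.5 in PHS and 57.6 ± 16.4 in NCS, with 0.73 ± 0.26 on the log2 scale and the same limma adjusted p of 0.920. Tap1 and Nlrc5 were the 2 members at an unadjusted p of at most 0.05. The heavy chains differed little, H2-K1 by -0.0025 ± 0.14 and H2-D1 by 0.028 ± 0.16. Of the 10 genes 7 had the higher mean log2 value in PHS and the median was 0.20, but with scaling by library totals, which gave all genes a median of 0.10, all 10 were higher. edgeR called 0 genes and DESeq2 1, which was no member.

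PHE against NCS used the same control libraries. No member passed limma's test (adjusted p 0.312 to 0.934), 0% of all genes passed, and 1850 genes stood at an unadjusted p of at most 0.05, B2m and Tap1 among them. Tap1 averaged 132 ± 10.4 normalized counts in PHE and 80.1 ± 32.0 in NCS (SD, n = 3 each), a log2 difference of 0.81 ± 0.31 with a limma adjusted p of 0.312, and 0.42 without NCS replicate 2. It was the one member without overlap, as were 11.7% of all genes in that direction. B2m averaged 1082 ± 117 in PHE and 873 ± 159 in NCS, a log2 difference of 0.32 ± 0.15 with a limma adjusted p of 0.360. edgeR called 0 genes, and DESeq2 called 68, with no member among them.

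PHE against PHS, exercise within the paternal arm, holds neither the MHS libraries nor the control group. No member passed limma's test (adjusted p 0.991 to 0.996), 0% of all genes passed, and 508 genes and 0 members stood at an unadjusted p of at most 0.05. The median log2 difference was -0.053 beside 0.010 over all genes, and the largest was that of Nlrc5, -0.24 ± 0.26. The 95% intervals of the 10 genes ran from -0.79 to 0.59 at their widest, and that of H2-K1 from -0.33 to 0.27. The means of 3 members were higher and those of 7 lower in PHE, and with library totals, which gave all genes a median of -0.075, all 10 were lower. edgeR called 0 genes and DESeq2 1, which was no member. MHE against PHE likewise had no member past limma's test (adjusted p 1.00 for each), 0% of all genes passed, 234 genes and 0 members stood at an unadjusted p of at most 0.05, and edgeR and DESeq2 called 0. Whether the difference between MHE and MHS departs from that between PHE and PHS was not tested, since it would use the libraries that chose the genes.

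The balance of immunoproteasome to constitutive subunits, which has 3 members in its numerator, was highest in MHS. Measured as the mean log2 value of Psmb8, Psmb9 and Psmb10 minus that of Psmb5, Psmb6 and Psmb7, it was -4.54, -4.16 and -3.96 in MHE, -3.37, -3.62 and -3.53 in MHS, -3.93, -4.22 and -4.00 in PHE, -3.89, -3.99 and -3.93 in PHS, and -4.29, -4.16 and -4.16 in NCS. The 3 MHS libraries were the highest, and the 3 PHS libraries all lay above NCS. MHS minus NCS was 0.70, MHE minus MHS was -0.72, PHS minus NCS was 0.27 and PHE minus PHS was -0.12, all log2 differences of group means. The constitutive subunits themselves differed little, with a median log2 difference of -0.0056 between MHS and NCS, and Psmb6, for example, averaged 3653 ± 494 normalized counts in MHS and 3573 ± 355 in NCS (SD, n = 3 each). Psmb9 stood at 0.0267 ± 0.0063 counts per Psmb6 count in MHS, against 0.0127 ± 0.0016 in NCS.

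**Figure D4:**
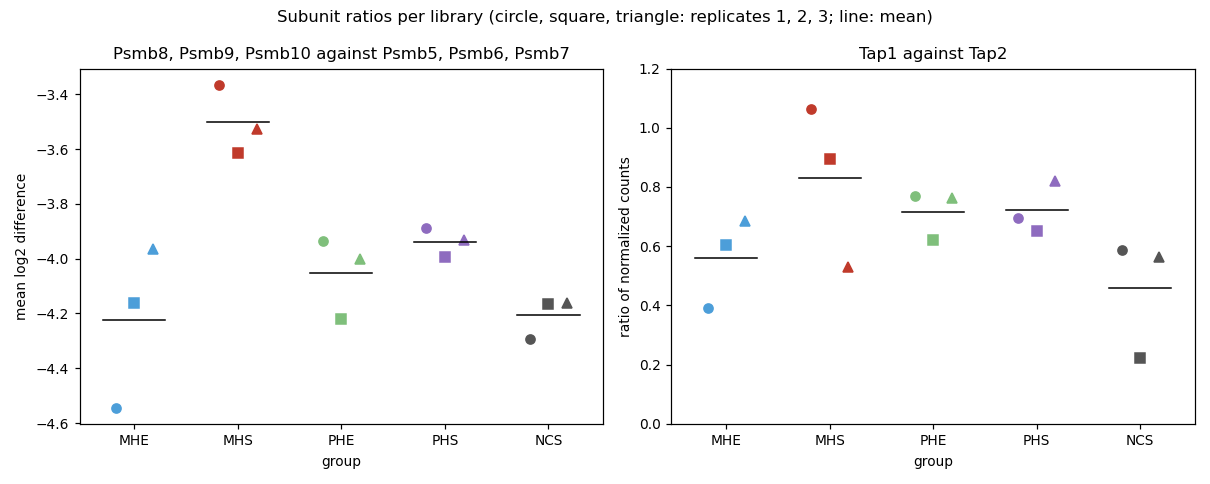
Mean log2 difference between immunoproteasome and constitutive subunits (left, log2 scale) and ratio of Tap1 to Tap2 normalized counts (right) in each library, by group. Points are libraries and lines group means, and the MHS libraries hold the 3 highest values on the left but overlap the other groups on the right.

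Other genes of the pathway were taken from lists of its parts. Of 17 other class I heavy chains and relatives 16 matched and 12 were tested: 11 had the higher mean in MHS than in NCS, with a median log2 difference of 0.65, and 0 passed limma's test. For 4 of them, H2-T23, H2-Q7, H2-T10 and H2-M3, MHS lay above NCS without overlap, as did 4.44% of all genes. The gap was narrow for H2-M3, with 36.7 in MHS replicate 3 and 35.6 in NCS replicate 3. H2-T23, a nonclassical chain read by natural killer cell receptors, averaged 241 ± 50.2 normalized counts in MHE, 392 ± 66.8 in MHS, 238 ± 6.13 in PHE, 235 ± 39.7 in PHS and 222 ± 30.6 in NCS (SD, n = 3 each). H2-Q7 had 319, 152 and 356 normalized counts in the 3 MHS libraries and 113, 101 and 142 in NCS. H2-Q6 had 417, 181 and 366 in MHS and 150, 148 and 221 in NCS. For both, MHS replicate 2 stood far below the other MHS libraries, unlike for H2-K1.

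H2-Q10, a heavy chain secreted mainly by the liver, had 8.38, 1142 and 232 normalized counts in MHS and 26.4, 101 and 21.4 in NCS. Its high values fell in the libraries with many hepatocyte reads, and with 9 reads it was near its lowest in MHS replicate 1. Cd1d1, which presents lipids, followed the same order in MHS, with 20.5, 192 and 49.7. In NCS it was also highest in replicate 2, with 24.4, 49.5 and 30.3.

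Chaperones and trimming enzymes of the pathway had smaller differences than the members. Of 12 tested (such as Calr, Canx and Erap1) 10 had the higher mean in MHS than in NCS, but the median log2 difference was 0.069, and 0 passed limma's test. Their median was 0.21 in MHE against MHS, opposite in sign to that of the members. Tapbpl, a relative of tapasin, differed most between MHS and NCS, by 0.23 ± 0.23 (SE). The 4 proteasome activator genes had a median of -0.078 in MHS against NCS, with Psme1 at 554 ± 32.4 normalized counts in MHS and 615 ± 52.3 in NCS (SD, n = 3 each), and 0 passed.

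Upstream of the members, 24 genes of the RFX complex and interferon signalling were listed and 23 tested, of which 14 had the higher mean in MHS than in NCS, with a median of 0.13 and 0 past limma's test. Irf1, an interferon-induced transcription factor of class I genes, had 158, 189 and 187 normalized counts in MHE, 296, 274 and 203 in MHS, 152, 141 and 177 in PHE, 159, 205 and 227 in PHS, and 185, 103 and 151 in NCS. Ifnar2, a chain of the type I interferon receptor, had 65.1, 69.2 and 77.7 in MHE, 88.5, 127 and 122 in MHS, 59.0, 66.0 and 69.6 in PHE, 81.1, 88.9 and 72.8 in PHS, and 67.1, 58.6 and 65.0 in NCS. Both lay higher in MHS than in NCS without overlap, as did 4.44% of all genes, and both overlapped between MHS and PHS. Ifng itself had 0 reads in all 15 libraries, where 3 reads per library is the limit that such a count allows.

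Of the tested genes outside the set, the 10 most like the members were ranked by Pearson r, over the 15 libraries, between their log2 value and the mean z score of the members. They were Parp10 (r of 0.90), Bst2 (0.89), H2-T23 (0.88), Wars (0.84), Lmf1 (0.84), H2-Q4 (0.83), Msto1 (0.82), Adck5 (0.81), Uba7 (0.81) and Cxxc1 (0.81). The libraries share groups and the MHS libraries stand apart in the score, so r is a description. Bst2, an interferon-induced membrane protein that holds budding viruses, averaged 105 ± 16.1 normalized counts in MHE, 178 ± 12.1 in MHS, 124 ± 17.7 in PHE, 106 ± 6.21 in PHS and 92.4 ± 9.62 in NCS (SD, n = 3 each). Parp10, an ADP-ribosyltransferase, averaged 141 in MHE, 217 in MHS, 155 in PHE, 151 in PHS and 148 in NCS, with SDs of 11.7 in PHE to 33.6 in PHS. Among the members, the 45 pairs had r between 0.26 and 0.92 with a median of 0.68, and between -0.36 and 0.84 with a median of 0.38 once group means were removed.

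Between the outermost of the 7 members on chromosome 17, 61 other genes were tested, with a median log2 difference of 0.11 between MHS and NCS. Single genes there differed by as much as Apom, an apolipoprotein made in the liver, at 2.90, and the complement gene C4b at 1.31. Of these 49 had the higher mean in MHS, but only 2 (3.28%), Prrt1 and 1110038B12Rik, lay above NCS without overlap, near the 4.44% of all genes.

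Class I genes are expressed in all nucleated cells and strongly in leukocytes and endothelium, and in bulk muscle fewer cells of a type and less RNA per cell cannot be told apart. Lymphoid markers were near 0: the summed level of 8 T cell genes was 9.01 to 13.4 normalized counts in MHE, 6.48 to 21.97 in MHS, 11.8 to 18.2 in PHE, 10.7 to 22.6 in PHS and 14.2 to 28.3 in NCS, and no library had more than 4 reads of Cd8a. Cd3e, of the same list, had up to 25 reads in a library. It had 5.59, 9.67 and 2.16 normalized counts in MHS and 19.3, 25.3 and 5.34 in NCS. Natural killer cell genes summed to 1.02 to 7.29 in MHE, 2.79 to 14.9 in MHS and 0 to 9.79 in NCS. Their sums were 1.18 to 3.41 in PHE and 2.42 to 3.56 in PHS. B cell genes summed to 4.66 to 21.97 in MHS, the highest of any library, and to 11.6 to 19.2 in NCS. Of 8 natural killer cell genes, Ncr1 and Eomes were at 0 reads in 14 of 15 libraries, and Nkg7 and Prf1 in 8. The highest count of any of these 8 genes was 5 reads, for Klrb1c.

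The 8 macrophage genes summed to 347, 338 and 1043 normalized counts in MHE, 411, 964 and 621 in MHS, 418, 393 and 295 in PHE, 525, 374 and 640 in PHS, and 476, 515 and 442 in NCS. MHS replicates 2 and 3 stood above the NCS libraries and MHS replicate 1 below them, and MHE replicate 3 had the highest sum of all. The part of macrophage reads in the members' difference was not tested. The 8 MHC class II genes, which mark antigen presenting cells, summed to 1093 ± 710 in MHE, 1053 ± 222 in MHS, 818 ± 415 in PHE, 837 ± 318 in PHS and 749 ± 181 in NCS (SD, n = 3 each). Of the 8, 6 had the higher mean in MHS than in NCS, with a median log2 difference of 0.37 and 0 past limma's test. The 7 endothelial genes summed to 8197 ± 195 in MHE, 7885 ± 260 in MHS, 7430 ± 1192 in PHE, 8117 ± 220 in PHS and 8297 ± 888 in NCS (SD, n = 3 each). The 5 dendritic cell genes summed to 146 to 207 in MHE, 190 to 197 in MHS, 163 to 217 in PHE, 177 to 219 in PHS and 107 to 181 in NCS. Most of that sum was Zbtb46, which endothelium also expresses, with 183, 175 and 174 in MHS and 159, 99.0 and 134 in NCS. Xcr1, which marks cross-presenting dendritic cells, was near the floor, with at most 4 reads in a library. It was at 0 in all 3 MHS libraries and in NCS replicates 1 and 2. Clec9a, of the same list, had 9.32, 14.9 and 6.48 in MHS and 14.2, 7.07 and 18.7 in NCS. The part of these cells in the members' difference was not tested. Neutrophil and adipocyte sums overlapped between MHS and NCS.

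**Figure D5:**
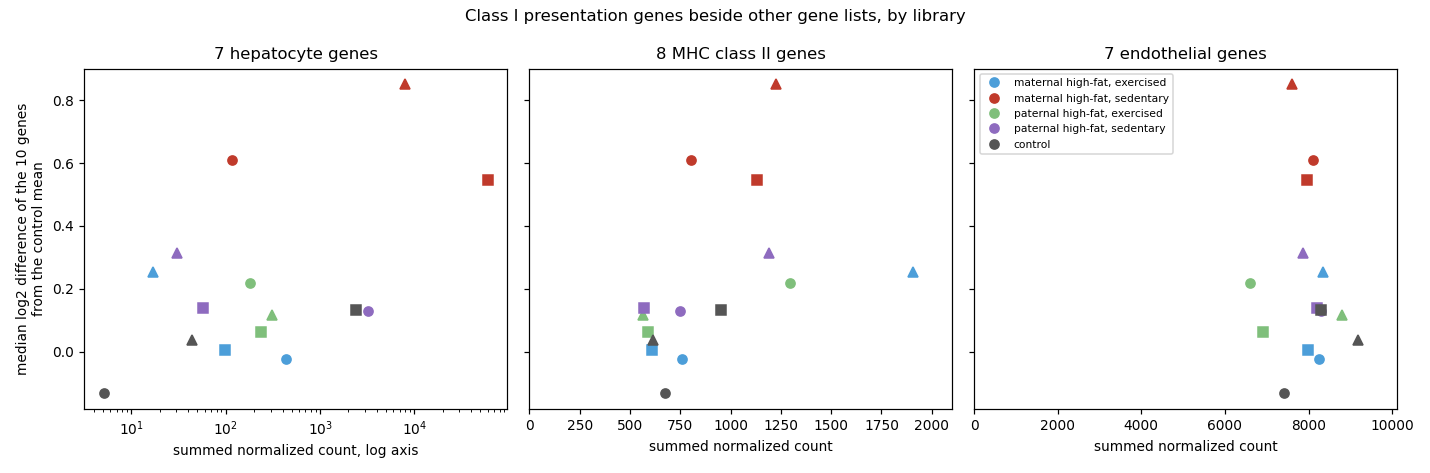
Median log2 difference of the 10 class I presentation genes from their NCS mean (vertical axis) in each library, against summed normalized counts of hepatocyte genes (left, log axis), MHC class II genes (middle) and endothelial genes (right). Points are libraries, and the 3 MHS libraries are the highest at hepatocyte sums from 117 to 59976 and at endothelial sums inside the range of the other groups.

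Reads that fit more than one gene could move some values. Of all stretches of 100 bases, the read length, in the members' transcripts, 14.8% were shared with another gene for Tapbp (mostly Gm19412), 8.05% for Psmb8 (Gm20496), 4.99% for Tap2, 3.59% for H2-D1 (mostly H2-Q1), 2.73% for Psmb9 and 1.93% for Tap1 (each with the other), 0.957% for H2-K1 (H2-Q10), and 0 for B2m, Psmb10 and Nlrc5. H2-Q1 had at most 6 reads in a library. The labels do not say how such reads were assigned.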

How the data were processed

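Total RNA of 15 quadriceps samples, depleted of ribosomal RNA by a kit that keeps the strand, gave single-end reads of 100 bases, per the labels. DESeq2 1.11.8, featureCounts 1.5.2, STAR 2.5.2b and the build mm10 stand in the submitters' processing notes. The labels do not say whether counting used the strand. The deposited values are a signal: read counts that the authors divided by 1 size factor per sample, as deduced from the values. Every value was a whole multiple of the column's step (100%, tolerance 0.001 of a read), so whole reads were recovered. Of 50686 genes, 50462 (99.6%) matched GENCODE M21.

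The main test was limma 3.58.1 (R 4.3.3, lmFit and eBayes with a trend) on log2(normalized count + 1), all 15 samples in 1 fit, genes with a mean of at least 10, and Benjamini-Hochberg adjustment over 13499 genes within each of 8 comparisons. Another 37187 genes were not tested. Differences on this scale understate those of low genes. The recovered reads were also tested with edgeR 4.0.16 (quasi-likelihood), DESeq2 1.42.0 and voom. Pseudocounts, filters, scalings, left-out libraries and covariates for the title code or hepatocyte reads were varied as alternatives. Recovered reads of replicate pairs were far apart (chi-square of 17.6 to 88.1 per degree of freedom), so none was treated as a copy. The fit was also run on simulated counts, and the shares of changed genes it found there are not given here.

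The members, gene lists and alternatives were chosen with earlier results of these data known. All members were fitted in every comparison. The text of most comparisons gives the values of only some members, picked with the values known. Of other lists, examples were taken from the 3 largest differences per comparison. Ifng, Calr, Canx, Apom, C4b, H2-T10, H2-M3 and the single marker genes were picked with their values known. The listed genes H2-L and Tf matched no gene. Replicate numbers were given in accession order.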

Additional observations from a re-analysis of the deposited data

How the results depend on the processing

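The count of members past the threshold, 0 with limma in each of 8 comparisons, moved under 3 kinds of change. With DESeq2 it was 4 for MHS against NCS and 3 for MHE against MHS, where 18 (0.134%) and 58 (0.43%) of 13479 genes passed. With the hepatocyte score as a covariate it was 1 for MHS against NCS (Tap1), where 1 of 13499 genes passed. With each library left out in turn it ranged from 0 to 1 for MHE against MHS. The member was H2-K1, without MHS replicate 1, where 109 of 13499 genes passed. These comparisons hold the MHS libraries by whose values the genes were chosen, so such counts describe the choice and are no test. The median log2 difference moved by more than the spread between replicates in 2 cases: it was -0.45 for MHE against MHS with the title code, and 0.38 for MHS against PHS without the 4 libraries with most hepatocyte reads. Members near 0 changed sign beyond the limits set in 7 cases. Psmb9 did so in MHE against NCS without MHE replicate 1 (0.25, and -0.34 at the other end of the left-out libraries). H2-D1 did so in PHS against NCS without PHS replicate 3 (-0.13, and up to 0.15). H2-K1 (0.18) and Psmb10 (0.064) did so there without the 4 libraries, and Tap2 (-0.10) and Psmb10 (0.13) there with the title code. The last was B2m in PHE against PHS with the title code (-0.18). Smaller sign changes are not among the 7. With library totals, for example, 0 members were higher in PHE against PHS, where the main fit had 3. The other 160 counts, 162 medians, 1600 member values and 88 subunit balances stayed within the limits set, and 33 member values moved without changing sign. The cause was not tested. The title code could not be estimated for MHS or MHE against NCS, MHS against PHS or MHE against PHE.

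No paired analysis was possible because the labels give no replicate numbers and the numbers used only follow the order of the records. With 3 libraries per group, and as few as 26 reads for Psmb9, small differences were not detectable at this depth. Where a group kept 1 library, that library was assumed to vary like the others.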
